A study of Mus musculus with 9 samples.

Results

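The 9 endothelial lipid uptake genes Fabp4, Fabp5, Gpihbp1, Pparg, Scarb1, Vldlr, Angptl4, Slc27a3 and Slc27a4 were read as the rows with these symbols in a deposited table of 52183 genes. RNA-seq was run on endothelial cells that had been sorted out of mouse long bones, after the living animals had received an antibody against the junction protein VE-cadherin. The 9 libraries form 3 groups of 3: young control mice (3 months), aged control mice (18 months), and aged mice (18 months) whose genotype label is Thbs1 knockout. The labels give no strain, sex or altered allele. Nothing in them ties each library to its own animal, and the p-values here therefore cover only the spread among these libraries, which may be technical. Thbs1, the gene for thrombospondin-1, contradicted that genotype label, with 25.63, 19.45 and 19.84 FPKM under it against 0.67, 0.82 and 1.17 in aged and 4.55, 3.89 and 4.18 in young controls. The table has no exon-level values, so a partial deletion cannot be seen in it. These libraries are therefore called "labelled knockout" throughout.

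Endothelial cells stand between blood lipids and the tissue. GPIHBP1 carries lipoprotein lipase to the luminal surface of capillaries, where the enzyme releases fatty acids from triglyceride-rich particles, and the secreted protein ANGPTL4 inhibits that enzyme. The VLDL receptor and the HDL receptor SCARB1 bind whole lipoproteins, the fatty acid transport proteins of the SLC27 family promote uptake and activation of fatty acids, and FABP4 and FABP5 carry fatty acids inside the cell. PPARG is a nuclear receptor that fatty acids can activate, and Fabp4 and Angptl4 are among its known targets. Adipocytes, which are common in old marrow, also express several of these genes.

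The cells had the messages of endothelium. All 14 endothelial markers on a list reached the filter, and their summed level was 2670 to 2733 FPKM in the young controls, 2844 to 3035 in the aged controls and 2671 to 2785 in the labelled knockout libraries. VE-cadherin (Cdh5) itself stood at 153.15 to 176.54 FPKM in the 9 libraries, and the lowest endothelial marker, Vwf, at 0.56 to 1.98 FPKM. The pan-leukocyte gene Ptprc was at 0.03 to 0.13 FPKM. Some other blood cell markers were far higher, with S100a8 at 2.33 to 74.91, S100a9 at 1.76 to 81.12 and Hbb-bs at 25.66 to 115.0 FPKM. The macrophage marker Lyz2 was at 8.79 to 47.5 FPKM. Cldn5, for the tight junction protein claudin-5, rose with age from 483.6 ± 20.0 to 810.3 ± 49.6 FPKM and was lower again at 476.1 ± 81.3 FPKM under the knockout label (SD, n = 3, limma adjusted p = 0.0232 and 0.00897), and the endothelial transcription factor Erg fell with age from 14.4 ± 0.801 to 9.28 ± 1.96 FPKM (adjusted p = 0.0447). Of 9 fits that each left out 1 library, 6 lost the Erg call and 3 that of Cldn5 with age, and 5 of 11 other alternatives also lost the Erg call. The 2 Cldn5 calls share the aged control libraries and are not independent. The summed level is weighted to abundant markers such as Cldn5. Over the 14 markers the median log2 fold change was -0.15 with age, beside -0.05 over all genes. For labelled knockout against aged controls it was 0.12, beside 0.00. The recovered depth, explained with the processing, was 22160000 to 24590000 fragments in the 6 control libraries and 27240000 to 30420000 in the labelled knockout libraries.

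The lipid uptake genes spanned 4 orders of magnitude in level, shown in the plot of FPKM by gene. FPKM counts fragments per length of gene and relative to library depth, so levels of different genes can be set side by side. Fabp4 was among the most abundant messages of these cells. It measured 2049.02, 2097.40 and 2232.07 FPKM in young, 2660.36, 1691.32 and 1803.59 in aged and 2023.94, 2145.23 and 1879.89 in labelled knockout libraries. It ranked between 8 and 15 of all genes in each library and took 0.927% of all fragments on average. The 3 groups overlapped fully, with both the highest and the lowest library among the aged controls.

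**Figure D1:**
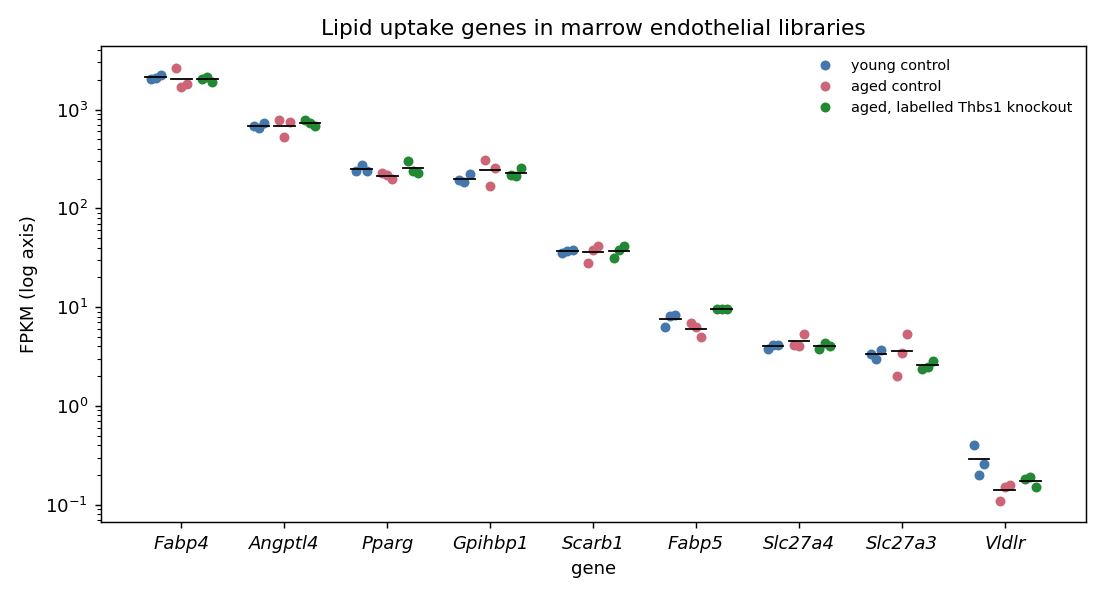
FPKM on a log axis for each of the 9 genes, with 1 point per library and a bar at the mean of each group of 3. From Fabp4, at 1691 to 2660 FPKM, to Vldlr, at 0.11 to 0.40 FPKM, the differences between genes are far larger than those between groups, and the 3 Fabp5 points of the labelled knockout group lie above all others of that gene.

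Angptl4, the inhibitor of lipoprotein lipase, came second, with 679.10, 646.50 and 739.08 FPKM in young, 776.05, 523.31 and 745.20 in aged and 776.38, 737.42 and 677.07 in labelled knockout libraries. Its lowest library, 523.31 FPKM, was above the highest of the next gene. Pparg and Gpihbp1 followed at 198.82 to 298.28 and 167.24 to 307.47 FPKM, and these ranges overlapped, so their order is not settled by these libraries. Scarb1 was at 27.90 to 41.94 FPKM. On the deposited values Fabp5 (4.93 to 9.58 FPKM), Slc27a4 (3.73 to 5.37) and Slc27a3 (2.00 to 5.29) formed a low group in which neighbours overlapped. Vldlr was lowest, and its highest library, 0.40 FPKM, was below the lowest of Slc27a3.

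In GRCm38, Angptl4 (ENSMUSG00000002289) lies on chromosome 17 at 33773750 to 33781830, and Pparg (ENSMUSG00000000440) on chromosome 6 at 115360951 to 115490399. Gpihbp1 (ENSMUSG00000022579) lies on chromosome 15 at 75596628 to 75599481, Scarb1 (ENSMUSG00000037936) on chromosome 5 at 125277087 to 125341094, and Vldlr (ENSMUSG00000024924) on chromosome 19 at 27216484 to 27254231. Slc27a3 (ENSMUSG00000027932) lies on chromosome 3 at 90385239 to 90389938 and Slc27a4 (ENSMUSG00000059316) on chromosome 2 at 29802634 to 29817522. Predicted genes Gm44079 and Gm42633 overlap the spans of Pparg and Scarb1 and share 0 exonic bases with them.

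The deposited values divide by the merged length of all annotated exons, and this bears on the order. Among short genes whose merged exons are longer than any single transcript, 91.2% to 100% of low values per library were whole fragments with the merged length, and 0.0% to 22.7% with the longest transcript. Fabp4 and Fabp5 each have an annotated retained-intron transcript, so their merged exons hold 4489 and 3567 bases against 896 and 987 for the longest coding transcript. Counted over the coding transcript alone, and with every fragment assigned to it, the mean level over the 9 libraries would be 10340 FPKM for Fabp4, 5.01 times the deposited value, and 27.8 FPKM for Fabp5, 3.61 times. For Angptl4 the factor is only 1.07. On this second scale Scarb1 has a mean of 123.2 FPKM, with a length ratio of 3.37, and the order of the gene means is the same apart from Gpihbp1, 346.2 FPKM, and Pparg, 333.2 FPKM, which change places. Fabp5, at 17.82 to 34.62 FPKM on this scale, no longer overlaps Slc27a4, at 4.06 to 5.84 FPKM. How many of the fragments came from unspliced RNA was not tested. The length is the same in every library, so ratios of FPKM between groups do not depend on it. It does set how far a low gene stands above the filter and above the 1 FPKM added before taking logs.

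Fabp4 and Fabp5 are neighbours as well as relatives. Fabp5 (ENSMUSG00000027533) lies on GRCm38 chromosome 3 at 10012548 to 10016607 and Fabp4 (ENSMUSG00000062515) at 10204088 to 10208576, 187.5 kb further on. Their coding sequences were identical at 241 of 399 aligned bases (60.4%). Fabp5 also has processed pseudogenes, intronless copies elsewhere in the genome, and 5 of them matched its transcript at 85% identity or more over at least 200 bases. The closest, Gm6166 (chromosome 9, 57483963 to 57484371), differed from the Fabp5 coding sequence at 5 of 407 aligned bases. The lines below are shown so that the likeness of Fabp5 to a copy can be set beside its likeness to Fabp4. They give bases 7 to 126 of the Fabp5 coding sequence, 5′ to 3′, and the aligned bases of the other 2, with every base that differs from Fabp5 in capitals (GENCODE M21, GRCm38).
Fabp5: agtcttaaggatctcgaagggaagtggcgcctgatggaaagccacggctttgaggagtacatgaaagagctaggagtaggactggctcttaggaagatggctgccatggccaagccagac
Gm6166: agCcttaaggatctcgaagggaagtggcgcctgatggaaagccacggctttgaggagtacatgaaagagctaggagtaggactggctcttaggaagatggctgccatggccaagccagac
Fabp4: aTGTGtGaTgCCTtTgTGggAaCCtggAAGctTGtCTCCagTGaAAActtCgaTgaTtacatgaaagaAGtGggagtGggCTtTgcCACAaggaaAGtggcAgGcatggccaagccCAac
In this window of 120 bases the pseudogene differs at 1 base and Fabp4 at 49. How the authors placed reads that match several places is not given in the sources used here. The 5 copies together held 8 to 16 fragments per library, 0.838% to 3.70% of the 432 to 1040 fragments of Fabp5, so the fragments counted at the copies are few beside those at Fabp5.

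Between aged and young controls, the question is how marrow endothelium differs with age. None of the 8 lipid uptake genes that reached a mean of 1 FPKM over the 9 libraries changed at an adjusted p under 0.05 in limma's moderated linear model of log2(FPKM + 1), fitted over 11796 genes with Benjamini-Hochberg adjustment. No member had an unadjusted p under 0.05 either, and limma voom on recovered fragments also called 0. Over all genes tested, 3.99% were called in this comparison, 1.2% as higher and 2.8% as lower, and 27.7% had an unadjusted p under 0.05. The members' log2 fold changes ran from -0.28 (Fabp5) to 0.24 (Gpihbp1), with a median of -0.04 against -0.05 over all genes, and their median absolute change was 0.11 against 0.20. Fold changes are those of FPKM + 1, in log2 units, so that a change of a gene near 1 FPKM comes out smaller than it is.

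**Figure D2:**
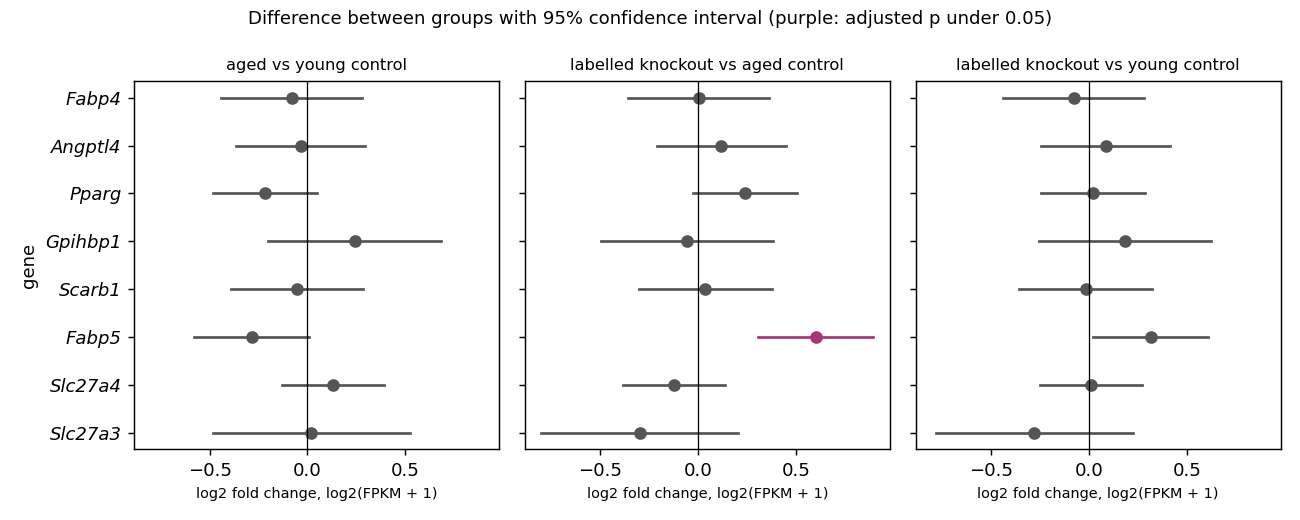
Log2 fold change on the log2(FPKM + 1) scale with its 95% confidence interval for the 8 tested genes in each of the 3 comparisons; purple marks an adjusted p under 0.05. Only Fabp5 in the middle panel is marked, at 0.60 with an interval of 0.31 to 0.89, and the other 2 panels hold no marked gene.

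The intervals are a guide to what these libraries could have missed. In the main fit every 95% interval of the 8 tested genes lay inside 1 log2 unit in all 3 comparisons. None of them therefore held a doubling or a halving of FPKM + 1. Each gene's intervals use 1 spread shared by the 3 groups. Over the members the median SD was 0.31 in the aged controls and 0.10 in each other group. Intervals that involve the aged controls may thus be too narrow, and those of labelled knockout against young controls too wide. For genes of a few FPKM, such as Fabp5 and Slc27a3, the change of FPKM itself is larger than that of FPKM + 1. For Fabp5 between labelled knockout and aged controls, the upper bound passed 1 in some alternatives. It was 1.006 with a pseudocount of 0.1, 1.025 with voom and 1.05 after rescaling to a common total. For Fabp4 the aged mean was 2052 ± 530.0 FPKM and the young mean 2126 ± 94.9 (SD, n = 3), with an interval on the log2 fold change of -0.44 to 0.28. Angptl4 had an interval of -0.36 to 0.30 and Scarb1, the HDL receptor, one of -0.39 to 0.29. Scarb1 read 35.26, 37.20 and 38.24 FPKM in young, 27.90, 38.20 and 41.94 in aged and 31.24, 37.65 and 41.12 in labelled knockout libraries, and these groups overlapped.

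Pparg, the nuclear receptor, was the one tested gene whose aged and young libraries did not overlap. It was read at 239.42, 271.48 and 238.43 FPKM in young, 226.34, 218.58 and 198.82 in aged and 298.28, 239.77 and 226.60 in labelled knockout libraries. All 3 aged values were lower than every young value, by 0.22 on the log2 scale at the means (95% interval -0.48 to 0.05, limma adjusted p = 0.259). Over all genes tested, 35.7% showed no overlap in this comparison, so 1 of 8 is no more than the background. The labelled knockout libraries were also all above the aged controls, the lowest at 226.60 against 226.34 FPKM, with a log2 fold change of 0.24 (interval -0.03 to 0.50, adjusted p = 0.2502).

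Gpihbp1, the lipase carrier, showed the widest scatter among the abundant members. It stood at 194.48, 184.14 and 221.94 FPKM in young, 307.47, 167.24 and 255.80 in aged and 215.91, 210.21 and 258.38 in labelled knockout libraries. The aged controls held both the highest and the lowest value. Its difference between aged and young controls was 0.24 (interval -0.20 to 0.68, limma adjusted p = 0.451).

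The 2 fatty acid transport proteins were low throughout. Slc27a4 measured 3.73, 4.15 and 4.17 FPKM in young, 4.16, 4.04 and 5.37 in aged and 3.80, 4.29 and 4.06 in labelled knockout libraries. Slc27a3 was read at 3.35, 2.98 and 3.67 FPKM in young, 2.00, 3.46 and 5.29 in aged and 2.39, 2.48 and 2.84 in labelled knockout libraries. The labelled knockout libraries of Slc27a3 were all below the young controls, with a log2 fold change of -0.28 (interval -0.78 to 0.22, limma adjusted p = 0.741). Slc27a3 had the widest intervals of the tested members, -0.80 to 0.20 between labelled knockout and aged control libraries. They were equally wide in the other 2 comparisons because the fit shares 1 spread over the groups. Slc27a4 lies on chromosome 2 with Thbs1, 88.3 Mb away.

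Vldlr, the VLDL receptor, did not reach the filter and was not in the fit. It was read at 0.40, 0.20 and 0.26 FPKM in young, 0.11, 0.15 and 0.16 in aged and 0.18, 0.19 and 0.15 in labelled knockout libraries, which is 25 to 92 fragments per library over its long merged exons. The young controls were all above the other 6 libraries. The exact permutation p (two-sided) was 0.1 against either aged group, the smallest p that 3 against 3 libraries allow. At this depth Vldlr was detected in every library, but at a level where rounding of the deposited values to 2 decimals is a visible part of each value.

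Fabp5 was the 1 lipid uptake gene that differed between the libraries labelled knockout and the aged controls, the comparison of the 2 genotype labels at 18 months. It stood at 6.23, 8.07 and 8.24 FPKM in young, 6.83, 6.23 and 4.93 in aged and 9.55, 9.58 and 9.49 in labelled knockout libraries. The labelled knockout values were nearly equal and above every control value, while young and aged controls overlapped. They rest on 955, 1040 and 922 recovered fragments, whose counting error alone is larger than the spread seen. Their near equality is therefore not a measure of precision. The group mean rose from 5.997 ± 0.971 FPKM in the aged controls to 9.54 ± 0.0458 (SD, n = 3), 1.59 times, with a log2 fold change of 0.60 ± 0.132 SE (95% interval 0.31 to 0.89, limma adjusted p = 0.0337). Of the 8 members tested 1 was called as higher and 0 as lower, against 2.78% and 2.01% of all genes (4.79% in either direction), and it was also the only member with an unadjusted p under 0.05, against 24.1% of all genes. Fabp5 and Pparg were the 2 members whose groups did not overlap, against 23.2% of all genes. Over the members the median log2 fold change was 0.02, against 0.00 over all genes.

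The Fabp5 call was narrow. Of the 9 fits that left out 1 library, 3 kept it and 6 lost it, with log2 fold changes of 0.49 to 0.69 and adjusted p of 0.0361 to 0.114. It was lost without young control replicate 2 (adjusted p = 0.0601) or 3 (0.0570), without aged control replicate 2 (0.0558) or 3 (0.0619), and without labelled knockout replicate 1 (0.114) or 3 (0.103), as the plot of Fabp5 with each library left out shows. The direction was the same in all 9. The call was kept on recovered fragments with limma voom (log2 fold change 0.69, adjusted p = 0.0268).

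**Figure D3:**
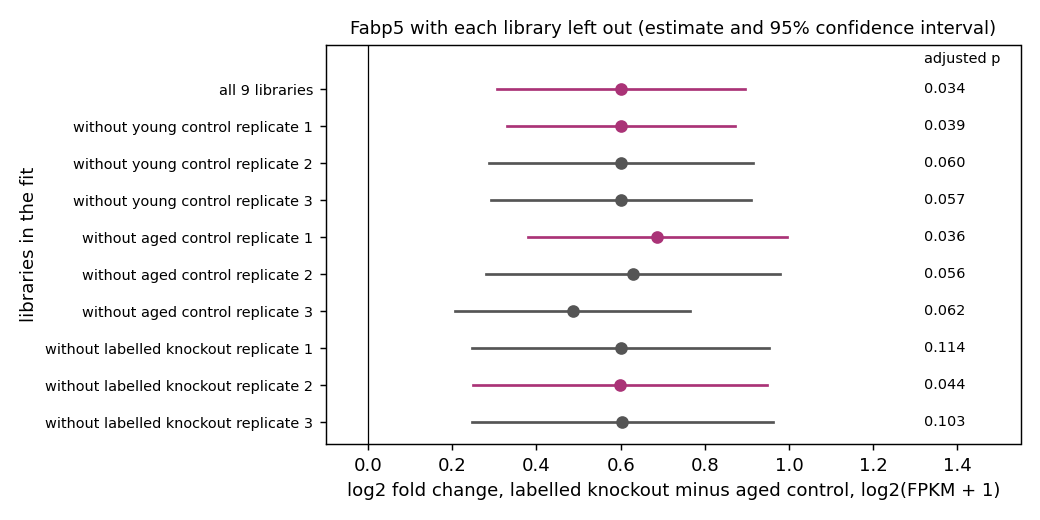
Log2 fold change of Fabp5, labelled knockout minus aged control, on the log2(FPKM + 1) scale with its 95% confidence interval, from all 9 libraries and with each library left out; purple marks an adjusted p under 0.05. Estimates stay between 0.49 and 0.69 and all intervals lie above 0, while the adjusted p passes 0.05 in 6 of the 9 reduced fits.

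The third comparison, labelled knockout against young control, mixes age and labelled genotype. It uses the same libraries as the other 2, so its values are not independent of theirs. Those other 2 comparisons also share the 3 aged control libraries. For any gene, a deviation in those libraries would move both of them, in opposite directions. None of the 8 members was called by limma, 1 had an unadjusted p under 0.05, and voom called 0. Over all genes 0.212% were called, 0.0848% as higher and 0.127% as lower, and 9.27% had an unadjusted p under 0.05. Fabp5 was the member with the low unadjusted p, at 9.54 against 7.51 FPKM, a log2 fold change of 0.32 (interval 0.02 to 0.61, adjusted p = 0.504). Fabp5 and Slc27a3 were the tested members with no overlap, against 22.4% of all genes. Fabp4 and Angptl4 had log2 fold changes of -0.08 (interval -0.44 to 0.28) and 0.09 (interval -0.25 to 0.42).

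The aged controls scattered more than the other groups. In 7 of the 8 tested members the SD of log2(FPKM + 1) was largest in the aged controls, and in Pparg it was largest in the labelled knockout libraries. The same was true of 55.5% of all genes tested, with the median SD over all genes at 0.20 in the aged controls, 0.09 in the young and 0.15 in the labelled knockout libraries. Over the members these medians were 0.31, 0.10 and 0.10. The aged libraries were not ordered alike for every gene: replicate 1 was highest for Fabp4, Angptl4 and Gpihbp1 and lowest for Scarb1 and Slc27a3, and replicate 2 was lowest for the first 3. For Fabp4, the coefficient of variation was 25.8% in the aged controls, 4.46% in the young and 6.59% in the labelled knockout libraries.

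Other genes of fatty acid uptake did change with age. Of 21 listed genes 11 reached the filter, and 1 rose and 2 fell between young and aged controls, against 1.2% and 2.8% of all genes. Cd36, a fatty acid translocase and scavenger receptor, measured 455.77, 544.06 and 500.44 FPKM in young, 298.60, 152.90 and 216.13 in aged and 408.69, 235.87 and 303.91 in labelled knockout libraries. Its fall to 0.445 times the young level (log2 fold change -1.21 ± 0.246 SE, limma adjusted p = 0.0371) left no overlap, and 6 of the 9 reduced fits, each without 1 library, lost the call. The acyl-CoA synthetase Acsl4 fell from 6.31 ± 0.182 to 3.997 ± 0.680 FPKM, and Vegfb, a growth factor linked to endothelial fatty acid transport, rose from 10.4 ± 0.428 to 18.7 ± 1.94 FPKM (SD, n = 3), with the calls lost in 6 and 3 of the 9 reduced fits. In the comparison of labelled knockout with aged controls only Cav1, for the caveolar protein caveolin-1, was called, with 48.51, 46.27 and 98.80 against 28.25, 25.60 and 32.72 FPKM, and 8 of the 9 reduced fits lost it. Against the young controls 0 of the 11 were called.

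Lipoprotein lipase, the enzyme that GPIHBP1 carries and ANGPTL4 inhibits, was lower with age while its 2 partners were not called. Lpl was read at 15.66, 17.09 and 14.96 FPKM in young, 9.03, 5.06 and 4.73 in aged and 11.81, 5.10 and 8.89 in labelled knockout libraries (log2 fold change of aged against young -1.26 ± 0.272 SE, limma adjusted p = 0.0408). In 6 of the 9 reduced fits its adjusted p was above 0.05, with the same direction in all 9. In the list of lipoprotein receptors and vascular lipases, 18 of 24 genes were tested, and Lpl fell and Msr1 rose with age. Msr1, a scavenger receptor that macrophages also make, went from 1.66 ± 0.365 to 6.73 ± 2.50 FPKM (SD, n = 3) and fell again to 2.16 ± 1.03 in the labelled knockout libraries. Its calls were lost in 5 and 7 of the 9 reduced fits. Against the young controls none of the 18 was called, the most abundant, the scavenger receptor gene Stab2, being at 309.5 ± 62.3 in the labelled knockout and 318.8 ± 16.4 FPKM in the young libraries (SD, n = 3). The other 6 listed angiopoietin-like genes were all below the filter, with Angptl8 the highest of them at 0.523 to 0.817 FPKM as group means.

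The lipid droplet coat genes Plin2 and Plin3 were highest in the aged controls, while the droplet and lipolysis list as a whole had a median log2 fold change of -0.03 with age. Plin2, for the coat protein perilipin-2, stood at 102.96, 96.64 and 107.68 FPKM in young, 172.95, 150.63 and 150.29 in aged and 88.63, 114.68 and 100.32 in labelled knockout libraries. It rose with age (log2 fold change 0.62, limma adjusted p = 0.0325) and was lower in the labelled knockout libraries than in the aged controls (-0.64, adjusted p = 0.0137), with no overlap in either. Those calls were lost in 4 and 1 of the 9 reduced fits. Both comparisons use the same aged control libraries, so the fall is not independent of the rise. Plin3 followed the same pattern, from 15.04 ± 0.141 to 23.4 ± 1.21 and 15.1 ± 2.87 FPKM (SD, n = 3), with calls lost in 7 and 6 of the 9 reduced fits. Of the 15 tested droplet and lipolysis genes 2 rose and 1 fell with age, the one that fell being the triglyceride lipase Pnpla2, from 96.8 ± 6.48 to 69.1 ± 6.98 FPKM, a call lost in 6 reduced fits. Between labelled knockout and aged controls 0 rose and 2 fell, and against the young controls none passed.

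**Figure D4:**
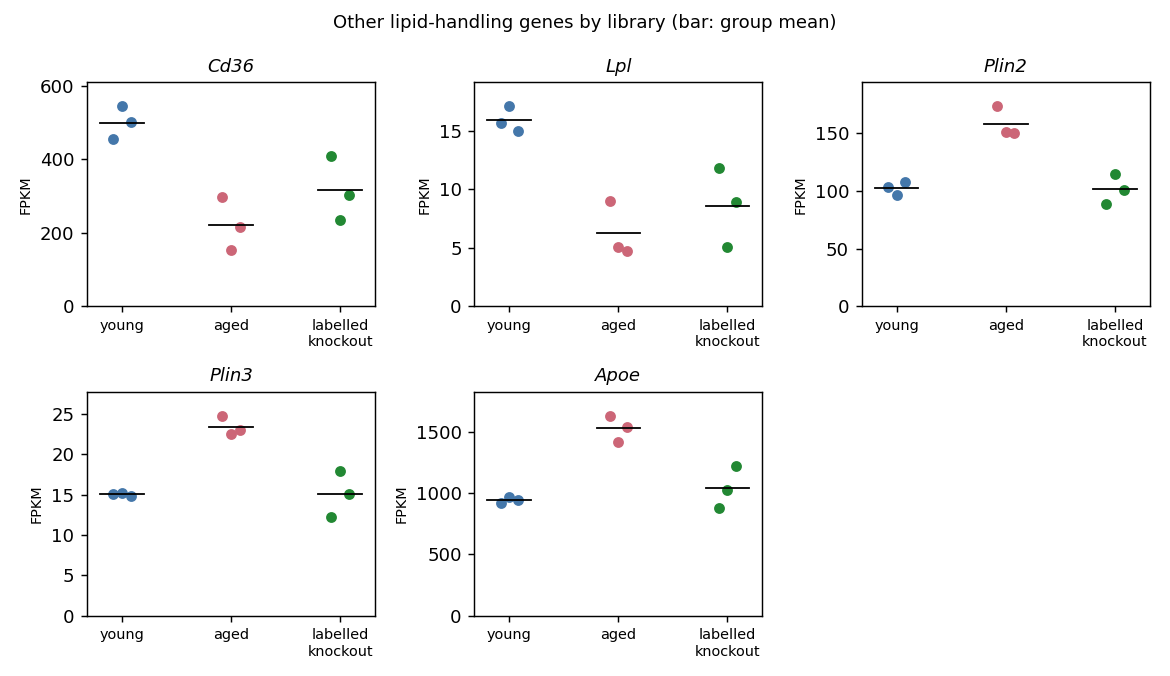
FPKM of 5 lipid-handling genes outside the group of 9, with 1 point per library and a bar at the group mean; each axis starts at 0. Cd36 and Lpl are highest in the young controls, and Plin2, Plin3 and Apoe are highest in the aged controls.

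The receptor partners of PPARG gave 1 call. Of 10 tested PPAR and retinoid X partners, none was called with age, and Rxrg fell from 1.97 ± 0.776 in the aged controls to 0.420 ± 0.142 FPKM in the labelled knockout libraries (SD, n = 3, limma adjusted p = 0.0389), which 7 of the 9 reduced fits did not call. Rxra, the most abundant partner, was at 25.3 ± 1.78 and 24.4 ± 0.894 FPKM in young and aged controls. Of 18 tested PPAR targets, Plin2 rose and Cd36 and Lpl fell with age, and Plin2 was lower in the labelled knockout libraries than in the aged controls, as given above. The median log2 fold change of this list was -0.17 with age and 0.08 for labelled knockout against aged controls, beside -0.05 and 0.00 over all genes.

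Among cholesterol efflux genes 1 was called. Apoe, for the lipoprotein ligand apolipoprotein E, rose with age from 940.9 ± 25.2 to 1529 ± 107.1 FPKM and was at 1041 ± 172.1 FPKM in the labelled knockout libraries (SD, n = 3, limma adjusted p = 0.0324 and 0.0356). It was the only call among 10 tested efflux genes in each of these comparisons, lost in 5 and 6 of the 9 reduced fits. None of 17 tested sterol synthesis genes was called with age, nor between labelled knockout and young control libraries. Insig2, a regulator of sterol synthesis and the list's most abundant listed gene, was at 13.5 ± 0.357, 14.4 ± 0.227 and 12.7 ± 1.19 FPKM in young, aged and labelled knockout libraries (SD, n = 3).

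Markers of other cells that express lipid uptake genes were read beside these results. Adipoq, the adipocyte hormone adiponectin, was at 14.47, 12.51 and 12.34 FPKM in young, 5.65, 5.53 and 6.72 in aged and 3.33, 3.41 and 4.55 in labelled knockout libraries, and was called as lower in all 3 comparisons (limma adjusted p = 0.00814, 0.0389 and 0.00044). The call between labelled knockout and aged controls was lost in 8 of the 9 reduced fits, and the one between aged and young controls in 2. The defining fat cell genes Plin1 and Cidec were at 0.00 to 0.04 and 0.00 to 0.19 FPKM. Cidea, Retn, Lep and Adrb3 were at 0 in all 3 labelled knockout libraries and at no more than 0.17 FPKM in any library. Cidea and Lep were also at 0 in all 3 aged controls, and Retn in all 3 young controls. Of 13 adipocyte markers found, 5 reached the filter and 4 of these were not called in any comparison. Between labelled knockout and young controls 4 of the 5 showed no overlap, against 22.4% of all genes. Their median log2 fold change there was -0.49, beside -0.03 over all genes. Sums over the list were 227.0 to 315.2, 173.9 to 388.0 and 171.6 to 200.1 FPKM in the young, aged and labelled knockout libraries. Cfd and Thrsp made up most of these sums. The level of Fabp4 was 141.6 to 180.9 times that of Adipoq in the young controls, 268.4 to 470.9 times in the aged controls and 413.2 to 629.1 times in the labelled knockout libraries. The rise in this ratio reflects lower Adipoq values, as Fabp4 was not called in any comparison.

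The 14 monocyte and macrophage markers summed to 87.4 to 150.5 FPKM in the young controls, 113.4 to 137.0 in the aged controls and 82.1 to 109.7 in the labelled knockout libraries, and 0 of 8 tested were called in any comparison, with Cd14, the most abundant over the 9 libraries together, at 37.4 ± 5.41, 34.3 ± 2.41 and 33.3 ± 7.25 FPKM (SD, n = 3). Their median log2 fold change was 0.53 with age and -0.83 for labelled knockout against aged controls, the direction of Msr1, Apoe and Plin2, and their part in those results was not tested. The 18 blood cell markers summed to 120.8 to 214.2, 140.1 to 284.9 and 78.3 to 270.9 FPKM, and the 12 stromal and osteoblast markers to 27.1 to 52.4, 16.5 to 21.1 and 17.9 to 23.3 FPKM, in the same order of groups. None of the 10 tested blood cell markers was called in any comparison, and the globin gene Hbb-bs was at 71.1 ± 3.28, 71.7 ± 42.1 and 58.3 ± 43.6 FPKM (SD, n = 3). Among the 3 stromal markers tested Ibsp, the bone matrix gene for integrin-binding sialoprotein, was the 1 call. It was lower in aged than in young controls at 4.19 ± 0.473 against 25.5 ± 11.5 FPKM (SD, n = 3, limma adjusted p = 0.0135), a call lost in 2 of the 9 reduced fits. All 3 showed no overlap with age, against 35.7% of all genes, with a median log2 fold change of -0.59. Ibsp and Lepr were lower in the aged controls and Alpl higher. The part of such cells in the falls of Lpl and Adipoq was not tested. For all genes given here, fewer cells of a type and less RNA per cell cannot be told apart in bulk libraries.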

How the data were processed

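The authors deposited FPKM values rounded to 2 decimals for 52183 genes, 1 column per library, and every column had a sample. FastQC 0.11.5, STAR, edgeR, GRCm38 and mm10 are named, with no role, per the submitters' processing notes. A kit for very small RNA inputs was used, per the labels' protocols. How reads were counted, and with which strand setting, is not given in the sources used here. All gene identifiers matched GENCODE M21. Depth was recovered from genes of 60 to 400 bases, where 99.6% to 99.8% of low values were whole fragments within a tolerance of 0.1. This gives fragment counts for genes whose length is right, and counting error only. No 2 libraries were identical.

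The 11796 genes averaging 1 FPKM or more entered a limma 3.58.1 fit in R 4.3.3 on log2(FPKM + 1), with all 9 libraries, 1 mean per group, 6 residual degrees of freedom and a trended eBayes. Because FPKM are not counts, no count test was the main one. In simulated data for these genes in the comparison of aged with young controls, 87% of genes changed by 1 log2 unit and 100% of those changed by 2 were recovered. The changed genes were drawn from those with a mean log2(FPKM + 1) above 2, and each gene had the same spread in every group. In the real libraries the median SD was 0.20 in aged and 0.09 in young controls, so these rates need not hold for them. Replicate numbers were not used to pair the libraries in this fit, as the labels state no pairing. Copies were found with blastn. Figures used matplotlib 3.10.9.

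The members, gene lists and tests were chosen with earlier results of these data known. Named genes were the 9 members, Thbs1, up to 3 called genes of each list by adjusted p (else its most abundant gene), and the 2 genes most like each member. Cdh5, Ptprc, single fat cell markers and the 5 genes plotted together were chosen after their values were seen. Some items that the rule names are not reported here. Alternatives were other pseudocounts, filters, scalings, variance models, fits of the compared groups alone, a replicate block, each library left out, voom and a threshold of 0.1. Rescaling FPKM to a common total was added after the data were seen. Reads and splicing were not analysed here.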

Additional observations from a re-analysis of the deposited data

How the results depend on the processing

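Of 474 alternative values of the members' log2 fold changes, 432 kept their direction and side of the threshold, 10 lost a call and 32 changed sign with no call in either fit; all 10 are Fabp5, labelled knockout against aged controls. The count of members called there was 1, and 0 with no filter (adjusted p = 0.113), quantile normalization (0.0505), the compared groups alone (0.0910) or the replicate block (0.0660), and 0 to 1 with a library left out. In the other 2 comparisons it was 0 in every alternative run. The cause was not tested. Whether same-numbered libraries were handled together is not given in the labels. Their deviations from the group means correlated at -0.129 to 0.124, and libraries of different numbers were not compared in this way. The replicate block gave 183 calls in place of 471 for aged against young controls, with 400 and 23 in the others.

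Counts over all genes for aged against young controls were 471, and 39 with no filter, 716 from the compared groups alone, 856 after rescaling to a common total, 1673 at a threshold of 0.1 and 5 to 1039 with a library left out. For labelled knockout against aged controls they were 565, and 146, 149 and 1297 with no filter, the compared groups alone and a threshold of 0.1, and 197 to 1159 with a library left out. For labelled knockout against young controls they were 25, and 15 with no filter, 12 with a mean of at least 5 FPKM, 40 at a threshold of 0.1 and 11 to 31 with a library left out. Scaling moved the split of higher to lower calls with age from 141 and 330 to 215 and 200 (median-ratio), 160 and 199 (quantile) or 133 and 723 (common total), the last moving the median of all genes from -0.05 to -0.15. The common total gave 444 and 184 in place of 328 and 237 for labelled knockout against aged controls.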

Other observations

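Angptl4 is also known as a hypoxia-inducible gene, so a fixed list of 20 other hypoxia-inducible genes was read, 19 of them tested. With age 3 fell and 0 rose: Adm, for the vasodilator peptide adrenomedullin, from 39.4 ± 3.52 to 23.4 ± 2.41 FPKM, Kdm3a from 13.3 ± 0.516 to 8.12 ± 1.99 FPKM, and Pfkfb3, an activator of glycolysis, from 8.88 ± 0.450 to 5.96 ± 0.597 FPKM (SD, n = 3, limma adjusted p = 0.0146, 0.0439 and 0.0491). With each of the 9 libraries left out in turn, these calls were lost in 2, 6 and 7 fits. Over all genes 2.8% were called as lower and 1.2% as higher with age. Between labelled knockout and aged controls 5 rose and 0 fell, against 2.78% and 2.01% of all genes. Adm rose to 42.6 ± 1.89 FPKM, Vegfa from 22.4 ± 0.218 to 34.1 ± 2.59 FPKM, and P4ha1, a collagen prolyl hydroxylase, from 13.0 ± 1.28 to 22.8 ± 3.31 FPKM (adjusted p = 0.0036, 0.00706 and 0.0101), and all 9 reduced fits called each of them. Against the young controls 0 of the 19 were called, with the glycolytic gene Ldha at 174.1 ± 14.7 against 136.4 ± 3.90 FPKM (adjusted p = 0.269). The median log2 fold change of the list was -0.12 with age and 0.16 for labelled knockout against aged controls, beside -0.05 and 0.00 over all genes. The 2 comparisons share the aged control libraries, so their opposite directions are not independent. Angptl4 itself was at -0.03 and 0.12 and was not called in either.

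The genes whose pattern over the 9 libraries was most like that of each member were taken from 6636 genes averaging 5 FPKM or more, by Pearson's r of log2(FPKM + 1), as a description. For Fabp5 they were Ddx17, an RNA helicase gene (r = 0.944), and Atf3, a stress-induced transcription factor (r = 0.925). Atf3 measured 227.47, 217.15 and 241.17 FPKM in young, 173.00, 156.69 and 122.69 in aged and 318.72, 325.56 and 279.53 in labelled knockout libraries. For Fabp4 they were Tmem237 (0.957) and Ccdc58 (0.946), both also highest in aged control replicate 1. For Angptl4 they were Tinagl1 (0.912) and Ywhab (0.853), for Pparg Extl3 (0.953) and Srrm2 (0.941), and for Gpihbp1 Grb2 and Clcf1 (0.936 each). For Scarb1 they were Eif2b2 and Rps6ka4 (0.935 each), for Slc27a3 Slc25a44 (0.961) and Repin1 (0.951), and for Slc27a4 Paqr4 (0.969) and Rrp1 (0.962). With 9 libraries in 3 groups, such values reflect the differences between groups as well as those within them.

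Among the members themselves, Fabp4 and Scarb1 ran opposite to each other over the 9 libraries (r = -0.72), while Scarb1 ran with Slc27a3 (0.738) and Gpihbp1 with Angptl4 (0.706). These were picked as the strongest of all pairs of the 8 tested members. They are a description, and whether they exceed what so many pairs would give by chance was not tested. The highest and the lowest library of Fabp4, Scarb1, Slc27a3 and Gpihbp1 were aged controls.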
